A study of Mus musculus with 45 samples.

Results

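The genes described here are 41 components and regulators of the extracellular matrix of the mouse liver, measured by RNA sequencing of whole liver tissue in 45 libraries. They were taken by name from the deposited expression table, in which all 41 were present among 24946 usable genes. The list holds 6 fibrillar collagen chains, 8 other collagens, 6 further basement membrane genes, 6 elastic fibre and adhesive glycoproteins, 3 small leucine-rich proteoglycans, 3 protease inhibitors, 4 proteases, 3 crosslinking enzymes, and the cytokine gene Tgfb1 with the filament gene Vim. Of these, 33 had a mean of at least 0.5 TPM, a length-scaled share of each library's transcripts, over all libraries, and were tested among the 11244 genes that reached this mean.

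In the liver, the matrix is a thin scaffold of collagens, glycoproteins and proteoglycans in the portal tracts, around the central veins and in the space between hepatocytes and sinusoids. Hepatic stellate cells and portal fibroblasts make much of the fibrillar collagen, sinusoidal endothelium contributes basement membrane components, and hepatocytes secrete plasma fibronectin. Deposition is balanced by matrix metalloproteinases and their inhibitors, and transforming growth factor beta is a well-known inducer of matrix genes in stellate cells. In fibrosis this balance is shifted and collagen accumulates.

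All mice carried the wild-type genotype and received a Lieber-DeCarli liquid diet, a standard liquid food given with or without ethanol. At peak injury, 8 control-labelled and 8 ethanol-labelled libraries were taken after 6 weeks of feeding. At early resolution, 8 control-labelled libraries were compared with 7 from mice returned to the control diet for 3 days after the ethanol diet, and at late resolution 8 control-labelled libraries were compared with 6 from mice returned to the control diet for 2 weeks. Each diet label held female-labelled and male-labelled libraries, 4 of each except for 3 female-labelled ethanol libraries at early resolution and 3 of each sex label in the ethanol group at late resolution. The sources used here do not give the age or strain of the mice, or how long control mice were fed at the resolution stages. The labels do not say that the libraries came from separate animals, so the p-values measure the spread between libraries.

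The sex labels did not match the sex transcripts of the libraries. Xist, the transcript of the inactive X chromosome, exceeded the summed Y-linked transcripts Ddx3y, Eif2s3y, Kdm5d and Uty in 21 of 21 ethanol-labelled libraries, whatever their sex label. The Y-linked transcripts exceeded Xist in 23 of 24 control-labelled libraries. The exception was the library labelled late control female 1, with 39.5 TPM of Xist and Y-linked transcripts listed at 0. In all, 22 libraries went against their sex label. Differences between the diet labels therefore cannot be told apart from differences between female-like and male-like livers. A contrast of the sex labels within a diet label compares libraries with the same sex transcripts, apart from the exception. Whether labels were exchanged between libraries was not tested, and the diet labels are used here as given. Tissue identity was as labelled: Alb was at a mean of 116800 TPM, and the summed level of 8 hepatocyte markers lay between 70620 and 195800 TPM in every group. In whole tissue, fewer cells of a type and less RNA per cell cannot be told apart.

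The upstream sequences of 5 of the 6 genes that differed between the diet labels at all 3 stages are shown first, because those genes are described at every stage below. Each is the 250 bases before the RefSeq start on GRCm38.p6, written 5′ to 3′ on the gene's own strand. Capitals mark matches to 3 motifs, each searched on both strands. The first is the core of the TATA box, spelled TATAAA. The second is the box named for its letters, CCAAT. The third is the GC box, spelled GGGCGG. An AP-1-like motif (TGANTCA) was searched as well and none of these 5 windows held it.
Postn, chr3:54360857-54361106, plus strand: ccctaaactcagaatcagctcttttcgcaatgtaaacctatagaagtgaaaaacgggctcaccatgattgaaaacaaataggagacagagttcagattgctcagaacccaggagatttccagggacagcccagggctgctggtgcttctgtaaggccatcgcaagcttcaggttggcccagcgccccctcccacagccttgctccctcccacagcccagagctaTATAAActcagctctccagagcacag
Mmp14, chr14:54431348-54431597, plus strand: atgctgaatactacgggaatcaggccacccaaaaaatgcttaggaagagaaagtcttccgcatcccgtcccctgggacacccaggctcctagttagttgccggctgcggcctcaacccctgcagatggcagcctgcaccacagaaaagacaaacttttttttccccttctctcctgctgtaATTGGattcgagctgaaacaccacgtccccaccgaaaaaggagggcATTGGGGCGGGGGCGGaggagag
Bgn, chrX:73483351-73483600, plus strand: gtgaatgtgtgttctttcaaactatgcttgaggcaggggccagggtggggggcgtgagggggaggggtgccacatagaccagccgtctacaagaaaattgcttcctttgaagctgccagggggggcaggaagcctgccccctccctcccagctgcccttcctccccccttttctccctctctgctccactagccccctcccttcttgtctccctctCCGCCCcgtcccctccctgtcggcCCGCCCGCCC
Tgfb1, chr7:25686752-25687001, plus strand: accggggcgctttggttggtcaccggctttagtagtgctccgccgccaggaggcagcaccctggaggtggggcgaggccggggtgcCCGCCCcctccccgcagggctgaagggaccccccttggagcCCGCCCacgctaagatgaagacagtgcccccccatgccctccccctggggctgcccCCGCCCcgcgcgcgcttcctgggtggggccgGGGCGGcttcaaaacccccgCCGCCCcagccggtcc
Col5a3, chr9:20815068-20815317, minus strand: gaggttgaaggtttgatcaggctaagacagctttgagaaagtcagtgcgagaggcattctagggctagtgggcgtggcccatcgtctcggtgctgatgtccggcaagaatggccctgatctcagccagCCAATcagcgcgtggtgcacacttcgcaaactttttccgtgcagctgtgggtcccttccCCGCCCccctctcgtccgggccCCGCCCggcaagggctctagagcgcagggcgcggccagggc
The window before Postn was the only one of the 5 with the TATA-box core, which began 26 bases before the start. RefSeq lists another Postn start further upstream, whose window held none of the 4 motifs; the printed one lies nearest to the GENCODE start. That of Tgfb1 held 5 GC boxes. Those of Mmp14 and Col5a3 held both CCAAT and GC boxes, and in Mmp14 a CCAAT box and a GC box shared a base. That of Bgn held 3 GC boxes, of which 2 overlapped. Over all 32851 windows of the same length in the RefSeq table, 12.4% held the TATA-box core, 33.8% a CCAAT box, 32.7% a GC box and 6.75% the AP-1-like motif. Over the 32 windows of the 28 matrix genes found in that table, the shares were 12.5%, 34.4%, 56.2% and 9.38%. A match of letters is a description and marks no bound factor. The window of Sparc, the sixth gene, overlapped annotated exons and is not printed.

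TPM is scaled to transcript length, so levels can be set side by side between genes. The matrix genes spanned several orders of magnitude, as the plot of levels shows. Fn1, which encodes fibronectin, led with a mean of 602 TPM and made up 54.7% of the summed TPM of the 41 genes on average. Biglycan (Bgn) followed at 131 TPM, Col18a1, the precursor of endostatin, at 111 TPM, decorin (Dcn) at 74.8 TPM and Tgfbi, a secreted adhesion protein, at 47.7 TPM. The ranges of Bgn, from 58.4 to 213 TPM, and of Col18a1, from 70.6 to 156 TPM, overlapped widely, so their order is not fixed by these libraries. The chains of collagen I were far lower, at a mean of 0.76 TPM for Col1a1, with a range from 0.165 to 2.08 TPM.

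**Figure D1:**
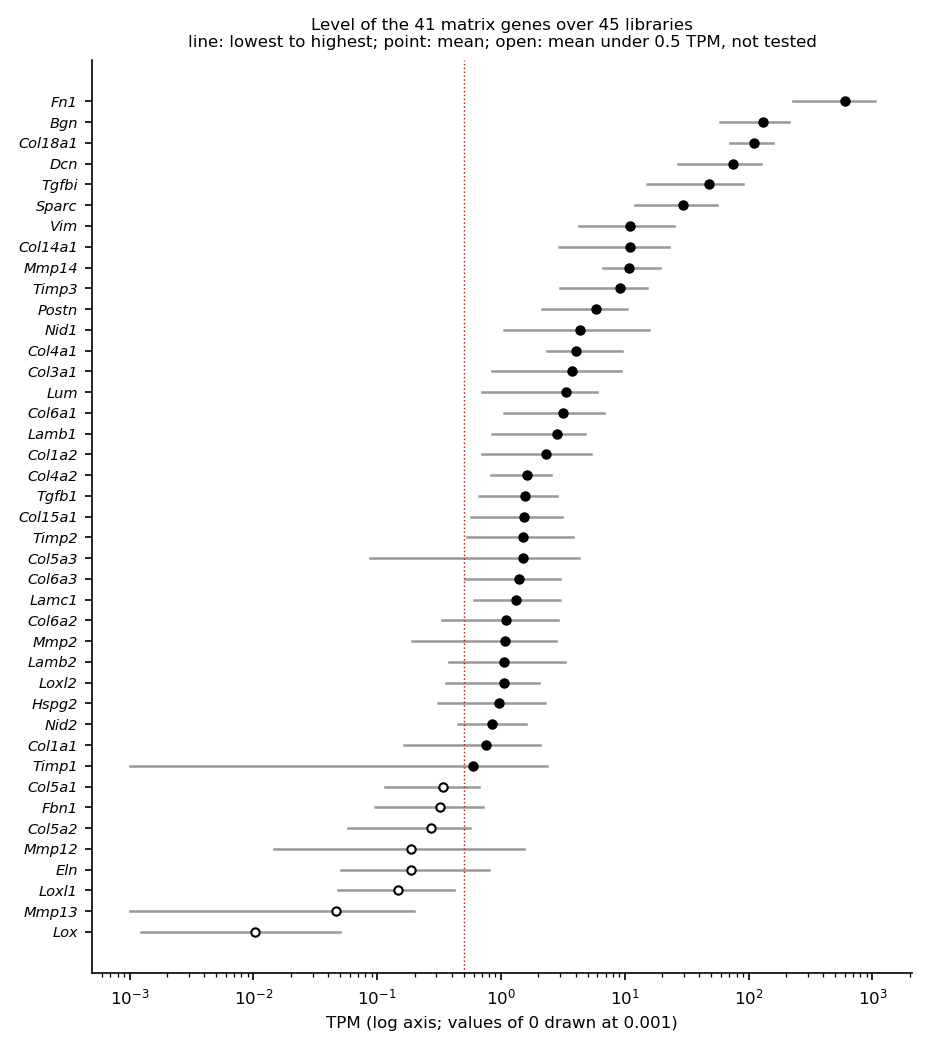
Level of each of the 41 matrix genes in TPM on a log axis, over 45 libraries. Points are means and lines run from the lowest to the highest library, open points are the 8 genes below a mean of 0.5 TPM, and Fn1 stands highest at 602 TPM.

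The 8 genes left untested were the fibrillar chains Col5a1 and Col5a2, the elastic fibre genes Fbn1 (fibrillin) and Eln (elastin), the proteases Mmp12 and Mmp13, and the crosslinking enzymes Lox and Loxl1. At peak, the median of Col5a1 was 0.198 TPM in control-labelled and 0.396 TPM in ethanol-labelled libraries. For Col5a2 the medians were 0.135 and 0.312 TPM, and for Fbn1 0.136 and 0.402 TPM. Mmp12, the macrophage elastase, stood at 1.12 and 1.52 TPM in the libraries labelled late control female 1 and 2, and at no more than 0.573 TPM in any other library. These same 2 libraries also held Col1a1 at 1.83 and 2.08 TPM. No fold change is given for these 8 genes, since their values are close to the lower end of the scale.

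At peak, the matrix genes were higher in ethanol-labelled than in control-labelled livers almost throughout. Of the 33 tested, 27 were higher and 1, Col5a3, was lower (limma, Benjamini-Hochberg adjusted p under 0.05). The median difference of the 33 was 0.69 on the log2(TPM + 0.5) scale, against 0.05 for all tested genes. Across all genes, 27.1% passed in either direction, 17.3% as higher and 9.81% as lower. After median-of-ratios scaling, 29 matrix genes were higher and 1 lower, while 35.7% of all genes passed, 15% as higher and 20.7% as lower. Fold changes on this scale understate the change of genes near 0.5 TPM. The plot of diet-label differences by stage shows these values.

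**Figure D2:**
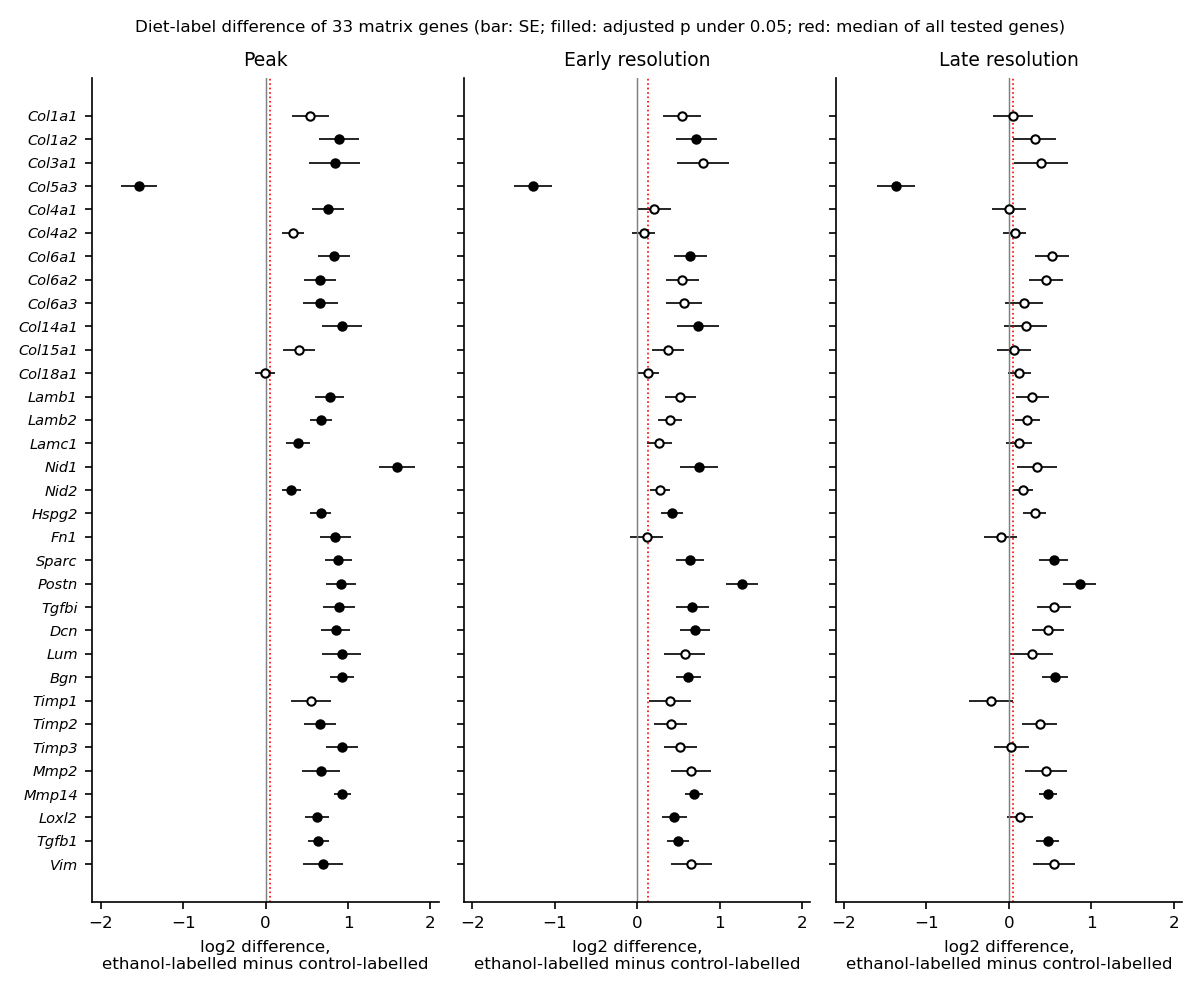
Log2 difference in TPM + 0.5, ethanol-labelled minus control-labelled, for 33 matrix genes ordered by role at peak, early and late resolution. Bars are standard errors, filled points passed limma at an adjusted p under 0.05, and the red line is the median of all tested genes; 28 points are filled at peak, 14 at early and 6 at late resolution.

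Among the fibrillar collagens at peak, Col1a2, the second chain of collagen I, and Col3a1, the chain of collagen III, were higher. Col1a2 ranged from 0.752 to 1.92 TPM with a median of 1.15 in the control-labelled libraries and from 1.68 to 3.76 TPM with a median of 2.55 in the ethanol-labelled ones. The lowest 2 ethanol-labelled libraries thus lay below the highest control-labelled one. The difference was 0.89 ± 0.24 (SE; adjusted p = 0.0055, limma, 8 against 8 libraries). Col3a1 moved from a median of 1.98 TPM, within 0.851 to 3.18, to 3.97 TPM, within 1.81 to 7.09, and differed by 0.84 ± 0.30 (limma, adjusted p = 0.038). Leaving out any 1 of 10 libraries ended that call. Col1a1 had a similar direction, 0.54 ± 0.23, and did not pass (limma, adjusted p = 0.070).

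Col5a3, a minor chain of collagen V, went the other way. Its control-labelled values at peak ran from 0.801 to 3.77 TPM with a median of 2.11, and its ethanol-labelled values from 0.0879 to 0.933 TPM with a median of 0.296. All but 1 control-labelled library lay above all ethanol-labelled ones. The difference was -1.53 ± 0.22 (limma, adjusted p = 1.6e-06). The other chains of collagen V, Col5a1 and Col5a2, had higher medians in the ethanol-labelled libraries, as given above without a test.

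Of the 8 other collagens, 5 were higher at peak. Col14a1, a fibril-associated collagen, had a median of 6.64 TPM (2.92 to 8.34) in control-labelled and 11.9 TPM (7.53 to 17.5) in ethanol-labelled libraries, a difference of 0.93 ± 0.24 (limma, adjusted p = 0.0044). Col6a1, a chain of the microfibrillar collagen VI, rose from a median of 1.78 TPM (1.06 to 2.50) to 3.46 TPM (2.26 to 6.51). The lowest 2 ethanol-labelled libraries lay within the control-labelled range, and the difference was 0.83 ± 0.19 (limma, adjusted p = 0.0013). The partner chains Col6a2 and Col6a3 also passed, at 0.66 and 0.67. Col6a3 did not overlap between the groups, with 1.04 TPM as the highest control-labelled and 1.07 TPM as the lowest ethanol-labelled value. Col4a1, a chain of the basement membrane network, differed by 0.76 ± 0.19 (limma, adjusted p = 0.0029), while its partner Col4a2 stood at 0.33 ± 0.13 and did not pass (limma, adjusted p = 0.059). Col15a1, at 0.40, and Col18a1, at -0.01, did not pass either.

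All 6 further basement membrane genes were higher at peak, with Nid1 first. Nid1 encodes nidogen-1, which links laminin to collagen IV. Its control-labelled values ran from 1.05 to 3.29 TPM with a median of 2.34, and its ethanol-labelled values from 4.08 to 15.8 TPM with a median of 6.81. The groups did not overlap, and the difference of 1.59 ± 0.22 was the highest of the 33 genes (limma, adjusted p = 1.1e-06). Its relative Nid2 differed by 0.31 ± 0.11 (limma, adjusted p = 0.037). The laminin chain Lamb2 had a median of 0.739 TPM (0.377 to 0.843) in control-labelled and 1.22 TPM (0.906 to 3.30) in ethanol-labelled libraries, again with no overlap. Lamb1 differed by 0.78 ± 0.18, Lamc1 by 0.40 ± 0.15, and the perlecan gene Hspg2 by 0.67 ± 0.13. The calls of Lamc1 and Nid2 were each lost when any 1 of 9 or 10 libraries was left out. Mean Lamc1 was 0.804 and 0.892 TPM in male-labelled control and ethanol libraries, against 1.14 and 2.21 TPM in female-labelled ones. For Nid2 these means were 0.553 and 0.587 TPM, against 0.719 and 1.33 TPM.

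The 4 tested glycoproteins and all 3 small leucine-rich proteoglycans were higher at peak. Postn, the matricellular protein periostin, had a median of 3.06 TPM (2.64 to 6.06) in control-labelled and 6.79 TPM (4.60 to 9.72) in ethanol-labelled libraries. It differed by 0.92 ± 0.19 (limma, adjusted p = 3.2e-04), with 2 ethanol-labelled libraries inside the control-labelled range. Sparc, a collagen-binding matricellular protein, moved from a median of 18.8 TPM, at most 31.3, to 36.6 TPM, at least 24.1. Tgfbi moved from 34.2 TPM (15.2 to 36.7) to 53.8 TPM (40.2 to 89.6) without overlap. Fn1 moved from 415 TPM (229 to 875) to 803 TPM (523 to 947), a difference of 0.85 ± 0.19 (limma, adjusted p = 8.6e-04). Among the proteoglycans, Bgn had no overlap, with 58.4 to 116 TPM against 119 to 198 TPM, and a difference of 0.93 ± 0.14 (limma, adjusted p = 7.9e-06). Dcn, which binds collagen fibrils and transforming growth factor beta, differed by 0.85 ± 0.18, and lumican (Lum) by 0.92 ± 0.24.

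Both tested proteases and 2 of the 3 inhibitors were higher at peak. Mmp14, the membrane-bound metalloproteinase that activates pro-Mmp2, had the smallest p of the 33 genes. Its control-labelled values at peak ran from 6.81 to 9.77 TPM with a median of 7.64, and its ethanol-labelled values from 12.9 to 19.3 TPM with a median of 14.3. The groups did not overlap, and the difference was 0.93 ± 0.10 (limma, adjusted p = 7.4e-09). Mmp2, a gelatinase, differed by 0.67 ± 0.24 (limma, adjusted p = 0.031), a call that ended when any 1 of 8 libraries was left out (control female 1 and 2, control male 1 and 4, and female and male 1 and 4 of the ethanol label). Of the inhibitors, Timp3, which stays bound to matrix, moved from a median of 5.87 TPM (2.97 to 10.2) to 11.1 TPM, with the groups meeting at 10.2 TPM. Timp2 did not overlap and differed by 0.66 ± 0.19, while Timp1 did not pass at 0.55 ± 0.25 (limma, adjusted p = 0.090). The crosslinking enzyme Loxl2 differed by 0.63 ± 0.15. Tgfb1 moved from a median of 1.19 TPM (0.794 to 1.62) to 2.15 TPM (1.57 to 2.84), a difference of 0.64 ± 0.13 (limma, adjusted p = 2.4e-04), and Vim, a filament of mesenchymal cells, differed by 0.70 ± 0.24, a call that ended without any 1 of 6 libraries (control female 2, control male 1, 3 and 4, ethanol female 1 and ethanol male 4). Counted over the 33, 7 genes had no overlap between the diet labels, all higher (Col6a3, Lamb2, Nid1, Tgfbi, Bgn, Timp2 and Mmp14); over all genes, 2.16% did so in that direction.

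Genes that act on or beside the matrix were also measured. Of 18 tested genes of transforming growth factor beta and platelet-derived growth factor signalling, 10 were higher and 1 lower at peak, with a median of 0.56; of all genes, 17.3% were higher and 9.81% lower. The receptor Pdgfra differed by 0.94 ± 0.16, the latent binding protein Ltbp4 by 0.95 ± 0.19, the activator Thbs1 by 0.89 ± 0.18, and the ligand Pdgfa was the lower one at -0.67 ± 0.20. Of 15 matrix receptors, 5 were higher and 0 lower, including the syndecan Sdc1 at 0.93 ± 0.12 and the integrin chains Itga9 at 1.10 ± 0.17 and Itgb3 at 1.10 ± 0.22. Of 13 genes of collagen making, 3 were higher and 2 lower: the collagen chaperone Serpinh1 at 0.66 ± 0.19, Pcolce, an enhancer of procollagen cleavage, at 0.61 ± 0.17 and Crtap at 0.45 ± 0.09 against Ppib at -0.25 ± 0.08 and Plod1 at -0.32 ± 0.11. Of 12 other proteases and inhibitors, 3 were higher, led by Adamts1 at 0.88 ± 0.16 and Ctsk at 0.86 ± 0.19, and 2 were lower, Mmp15 and Mmp19. At early resolution after scaling, where 16.7% of all genes passed, 1 of the 18 signalling genes was higher and 2 lower, 2 of the 15 receptors were higher, 2 of the 13 collagen-making genes were higher and 3 lower, and 2 of the 12 other proteases and inhibitors were higher. At late resolution after scaling, where 21.1% of all genes passed, 2 signalling genes were higher and 1 lower, 1 receptor was higher, 3 collagen-making genes were higher and 2 lower, and 2 of the other proteases and inhibitors were higher and 2 lower.

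Markers of the cell types that make matrix moved with these genes. Of 9 tested stellate cell markers, 7 were higher at peak, against 17.3% of all genes, with a median of 0.83, among them Colec11 at 0.86, Ecm1 at 1.00 and Ngfr at 0.83. Their summed level over the 12 listed lay between 57.4 and 217 TPM (median 102) in control-labelled and between 139 and 392 TPM (median 213) in ethanol-labelled libraries. Ecm1 and Colec11 dominated this list, at means of 91.4 and 61.8 TPM over all libraries, with Rgs5 next at 7.68 TPM. The highest sum was that of the library labelled peak ethanol female 1, in which Des was at 109 TPM, against at most 2.14 TPM in any other library, and the portal fibroblast marker Pi16 at 5.58 TPM, against at most 0.523 TPM. Without Des, the stellate sums were 56.9 to 216 TPM and 138 to 283 TPM. Without that library, 23 rather than 28 matrix genes passed at peak. Portal fibroblast markers were higher for 4 of 6 tested, and the sum over 8 was 14.2 to 22.1 TPM against 49.3 to 86.1 TPM. Gas6 carried that gap: without it the sums overlapped, at 5.65 to 12.2 TPM against 9.65 to 48.0 TPM. Sinusoidal endothelial markers were higher for 8 of 8, with sums of 66.1 to 251 TPM and 99.7 to 341 TPM. Smooth muscle markers were higher for 2 of 3, with sums of 4.46 to 9.25 TPM and 8.90 to 15.5 TPM. Of the other cell types, 1 of 10 macrophage, 2 of 5 monocyte, 1 of 2 cholangiocyte, 0 of 1 mesothelial, 1 of 8 hepatocyte and 0 of 4 neutrophil markers were higher, and 1 neutrophil marker was lower. The median sums in control-labelled and ethanol-labelled libraries were 257.5 and 399.5 TPM for macrophages (211 to 411 and 198 to 535), 42.1 and 61.7 TPM for monocytes, 1.39 and 3.12 TPM for cholangiocytes and 62.3 and 71.1 TPM for neutrophils, with overlapping ranges. Spp1, at a mean of 51.3 TPM over all libraries, dominated the monocyte list, with Cd9 next at 7.5 TPM. No stellate or endothelial marker was at 0 in any library; of the portal fibroblast markers, Clec3b was at 0 in 4 libraries and Pi16 in 2, and of the smooth muscle markers Cnn1 in 3 and Actg2 in 5. The part of these cells in the matrix gene differences was not tested.

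Taken within each sex label and after median-of-ratios scaling, 15 matrix genes were higher and 1 lower at peak among female-labelled libraries, where 7.91% of all genes passed, and 25 were higher and 1 lower among male-labelled ones, where 33.3% passed. As deposited the counts were 19 and 1 under the female label, with 6.65% of all genes, and 15 and 1 under the male label, with 23.4%. A difference of these differences was called for 0 of 33 matrix genes by limma, with 6 at an unadjusted p under 0.05, and for 0.427% of all genes. As deposited, it was also 0, with 2 at an unadjusted p under 0.05 and 0.16% of all genes. The same test gave 0 at early and at late resolution, with 1 and 0 matrix genes at an unadjusted p under 0.05 as deposited and 1 and 3 after scaling; 0.00889% and 0.0445% of all genes passed as deposited and 0% and 0.0711% after scaling.

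At early resolution, 3 days after the end of the ethanol diet, fewer matrix genes differed between the diet labels. The all-gene median was offset by 0.13, so values here are after median-of-ratios scaling. Of the 33, 10 were higher and 1 lower, against 16.7% of all genes in either direction, 7.62% as higher and 9.12% as lower. As deposited, 13 were higher and 1 lower, and 16.7% of all genes passed, 14.3% as higher and 2.46% as lower. The count of 14 became 24 without the library labelled early ethanol female 1, 9 without female 2, 7 without female 3 and 8 without the library labelled early control male 4. The median difference of the 33 was 0.42.

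Postn led this stage. Its control-labelled values were 3.88, 4.42, 2.16 and 5.72 TPM in the female-labelled and 4.93, 2.70, 2.64 and 2.75 TPM in the male-labelled libraries. Its ethanol-labelled values were 10.1, 9.55 and 8.84 TPM under the female label and 8.87, 6.89, 9.32 and 10.4 TPM under the male label. The diet labels did not overlap, and the scaled difference was 1.11 ± 0.18 (limma, adjusted p = 2.4e-05, 8 against 7 libraries). Dcn, at 42.8 to 85.8 TPM against 87.8 to 125 TPM, and Mmp14, at 6.66 to 10.8 TPM against 11.1 to 14.3 TPM, did not overlap either; both differed by 0.52 after scaling. Over all genes 1.85% did not overlap and were higher. Col5a3 was again lower, with 1.00 to 4.24 TPM in control-labelled and 0.269 to 1.14 TPM in ethanol-labelled libraries and a scaled difference of -1.39 ± 0.20 (limma, adjusted p = 4e-06).

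The other scaled calls at this stage were Tgfbi at 0.49, Col6a1 at 0.48, Sparc at 0.46, Bgn at 0.44, Tgfb1 at 0.36, Loxl2 at 0.32 and Hspg2 at 0.30. As deposited, the call of Loxl2 ended without any 1 of 10 libraries and that of Hspg2 without any 1 of 5. Those of Col6a1 and Tgfbi each ended without any 1 of 2 libraries. Fn1, higher at peak, stood at -0.07 ± 0.22 and did not pass (limma, adjusted p = 0.87), with medians of 497 and 635 TPM. Nid1 stood at 0.59 ± 0.22 after scaling and did not pass (limma, adjusted p = 0.055); as deposited it was called at 0.75. Stellate markers were called higher for 2 of 9 after scaling. Their summed levels did not overlap, at 94.2 to 187 TPM in control-labelled and 216 to 329 TPM in ethanol-labelled libraries. Macrophage markers were called higher for 6 of 10, with sums of 144 to 461 TPM in control-labelled and 392 to 627 TPM in ethanol-labelled libraries. Whether these cells bear on the matrix values was not tested.

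At late resolution, after 2 weeks on the control diet, 5 matrix genes were higher and 1 lower, against 12.8% of all genes in either direction, 8.82% as higher and 3.98% as lower. After scaling, 6 were higher and 1 lower, with Tgfbi added at 0.47, and all genes were 8.56% higher and 12.5% lower. Without the library labelled late control female 1, whose sex transcripts differ from those of the other control-labelled libraries, 8 were higher and 1 lower, and 18.7% of all genes passed. The added genes in that case were Tgfbi at 0.66, Vim at 0.72 and Col6a1 at 0.61.

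Postn again had the largest of the higher calls. Its control-labelled values were 7.66, 4.67, 3.37 and 2.78 TPM under the female label and 4.61, 5.17, 5.35 and 2.61 TPM under the male label. Its ethanol-labelled values were 6.16, 9.49 and 9.98 TPM under the female label and 8.26, 9.85 and 6.44 TPM under the male label. Only the library labelled late control female 1 reached into the range of the ethanol label, and the difference was 0.86 ± 0.20 with all libraries (limma, adjusted p = 0.0035) and 0.99 without it. Mmp14 did not overlap, with 6.81 to 11.5 TPM against 11.6 to 13.3 TPM, and differed by 0.48 ± 0.11 (limma, adjusted p = 0.0032); 0.391% of all genes were higher without overlap. Bgn differed by 0.56 ± 0.16, Sparc by 0.55 ± 0.18 and Tgfb1 by 0.47 ± 0.14. The call of Sparc ended when any 1 of 7 libraries was left out (late control female 3 and 4, control male 3 and 4, ethanol female 2 and 3, ethanol male 1), and that of Tgfb1 without the library labelled late control female 4. Col5a3 was lower without overlap, with 0.929 to 4.20 TPM against 0.371 to 0.748 TPM, a difference of -1.37 ± 0.24 (limma, adjusted p = 9.7e-05), and 0.347% of all genes were lower without overlap.

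None of the 8 other collagens and none of the 6 further basement membrane genes passed at late resolution. Col1a1 stood at 0.05 ± 0.24, Col4a1 at 0.00, Fn1 at -0.10 ± 0.20, Timp3 at 0.03 ± 0.21 and Nid1 at 0.35 ± 0.24. Stellate markers were higher for 2 of 9, Ecm1 at 0.92 and Colec11 at 0.66, endothelial markers for 0 of 8 and macrophage markers for 5 of 10. Of all genes, 8.82% were higher as deposited. The summed stellate markers lay between 75.5 and 224 TPM in control-labelled and between 196 and 262 TPM in ethanol-labelled libraries. Ecm1 and Colec11, at means of 91.4 and 61.8 TPM over all libraries, also had the highest levels of the listed stellate markers. The macrophage markers lay between 185 and 728 TPM in control-labelled and between 415 and 672 TPM in ethanol-labelled libraries. The part of these cells in the late values was not tested.

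In all, 6 of the 33 genes passed at each of the 3 stages as deposited. Bgn, Mmp14, Postn, Sparc and Tgfb1 were higher and Col5a3 was lower, as the plot by library shows. Of all genes, 27.1% passed at peak, 16.7% at early and 12.8% at late resolution. The share of all genes that passed at all 3 stages was not counted, so 6 of 33 cannot be set against it. For Sparc and Tgfb1, the late call depended on the single libraries given above. They are spread over 6 chromosomes: Bgn on X, Mmp14 on 14, Postn on 3, Sparc on 11, Tgfb1 on 7 and Col5a3 on 9. All are protein-coding in GENCODE M21.

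**Figure D3:**
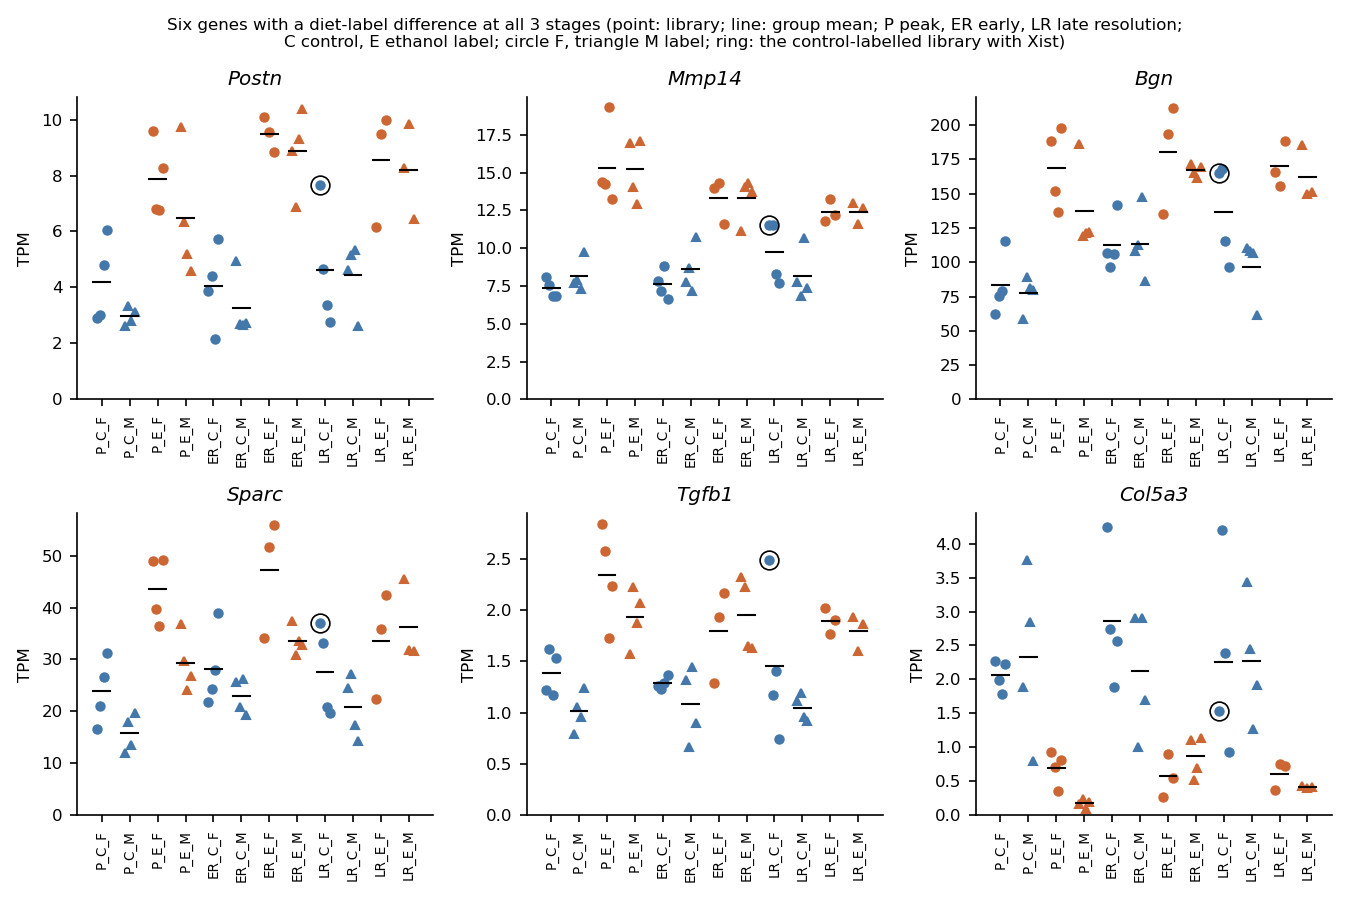
TPM of the 6 genes in every library, by stage (P, ER, LR), diet label (C blue, E orange) and sex label (circles F, triangles M), with lines at group means. The ring marks the library labelled late control female 1. It lies inside the ethanol-labelled range of that stage for Postn at 7.66 TPM, Bgn at 165 TPM and Sparc at 37.0 TPM. It lies below that range for Mmp14 at 11.5 TPM, and above it for Tgfb1 at 2.49 TPM and for Col5a3 at 1.53 TPM.

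Whether the difference between the diet labels changed with time was tested as a difference of differences. From peak to late resolution, 2 of 33 genes changed, Nid1 by -1.25 ± 0.33 (limma, adjusted p = 0.028) and Fn1 by -0.94 ± 0.28 (limma, adjusted p = 0.044); 3.98% of all genes passed. After scaling, Timp3 at -0.91 and Loxl2 at -0.50 were added, with 12% of all genes. In 31 of 33 genes the late difference was the smaller or more negative one, with a median change of -0.36 against 0.01 for all genes. Without the library labelled late control female 1, the change was positive for Col5a3, Col18a1, Postn and Vim, and its median was -0.31. Nid1 control-labelled libraries at late resolution held 5.49, 4.29, 1.94 and 3.76 TPM under the female and 3.79, 3.72, 2.89 and 2.67 TPM under the male label, and ethanol-labelled ones 2.48, 5.29 and 6.23 TPM and 6.73, 3.98 and 3.66 TPM. The diet labels thus overlapped for Nid1 at late resolution and not at peak.

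These changes over time rested on single libraries. The count of 2 became 0 without peak control male 1, peak ethanol male 1, late ethanol female 1, late ethanol male 2 or late ethanol male 3. It became 5 without peak control male 4 or late control female 3. It became 1 without peak control female 1 or 4, peak control male 2 or 3, peak ethanol female 2 or 3, peak ethanol male 2, 3 or 4, late control female 2 or 4, late control male 3 or 4, or late ethanol female 2. Without the library labelled late control female 1 it was 2. From peak to early resolution, 0 of 33 genes passed in limma, with 2 at an unadjusted p under 0.05, and 0% of all genes; after scaling 0 of 33 passed, with 7 at an unadjusted p under 0.05, and 0.178% of all genes.

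At peak, the ethanol-labelled livers with male and with female labels differed from each other, although all carried female-like sex transcripts. As deposited, 49.4% of all genes passed, 4.24% as higher and 45.2% as lower under the male label, and the median of all genes was -0.39. Values relative to this shift, after median-of-ratios scaling, are given first. On that scale 4 of 33 matrix genes were higher and 2 lower, against 31.4% of all genes. As deposited, 2 were higher and 7 lower; that count of 9 became 4 without the library labelled peak ethanol female 1 and 5 without peak ethanol female 2.

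Timp1, an inhibitor induced in injured liver, held 0.347, 0.182, 0.0745 and 0.515 TPM in the female-labelled and 2.31, 1.34, 0.478 and 2.37 TPM in the male-labelled ethanol libraries. Only 1 male-labelled library lay within the female-labelled range. The scaled difference, male minus female label, was 1.63 ± 0.36 (limma, adjusted p = 0.0012, 4 against 4 libraries). Col4a1 held 3.89, 3.39, 4.43 and 5.05 TPM and 7.75, 5.98, 5.47 and 8.53 TPM. Those groups did not overlap in TPM as deposited, which was not counted over all genes in this contrast. The scaled difference was 1.09 ± 0.30 (limma, adjusted p = 0.0071). As deposited, the call of Col4a1 ended when any 1 of 4 libraries was left out. Fn1 held 572, 631, 833 and 523 TPM and 894, 947, 867 and 773 TPM, overlapping by 1 library. It differed by 0.94 ± 0.30 after scaling (limma, adjusted p = 0.016) and did not pass as deposited at 0.46 ± 0.27 (limma, adjusted p = 0.14). Col4a2 differed by 0.39 ± 0.15 after scaling and stood at 0.02 as deposited.

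Lamc1, a laminin chain, and Nid2 were the genes lower after scaling. Lamc1 held 3.00, 2.51, 1.30 and 2.02 TPM under the female label and 0.985, 0.909, 0.778 and 0.896 TPM under the male label. Nid2 held 1.58, 1.39, 0.906 and 1.44 TPM and 0.667, 0.567, 0.526 and 0.588 TPM. Neither gene overlapped between the labels in TPM as deposited, where 45.2% of all genes passed as lower. The share of all genes without overlap in this contrast was not counted. The scaled differences were -0.58 ± 0.13 and -0.44 ± 0.11 (limma, adjusted p = 0.0018 and 0.0028). Col18a1, Lamb2, Hspg2, Sparc and Col5a3 were lower as deposited and did not pass after scaling. Neutrophil markers moved in the same contrast: 4 of 4 tested were higher under the male label after scaling, against 15.6% of all genes. S100a8 differed by 3.10 and S100a9 by 3.06, and the sum over 6 was 7.36 to 43.7 TPM against 98.4 to 150 TPM. Of the 6, Mpo was at 0 in 27 libraries and Ly6g in 16. Endothelial sums as deposited were 277 to 341 TPM under the female and 99.7 to 223 TPM under the male label. In the same order, stellate sums were 205 to 392 and 139 to 236 TPM. Portal fibroblast sums were 49.3 to 68.9 and 54.1 to 86.1 TPM, and smooth muscle sums 10.3 to 15.5 and 8.90 to 13.75 TPM. The part of these cells in the matrix values was not tested.

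**Figure D4:**
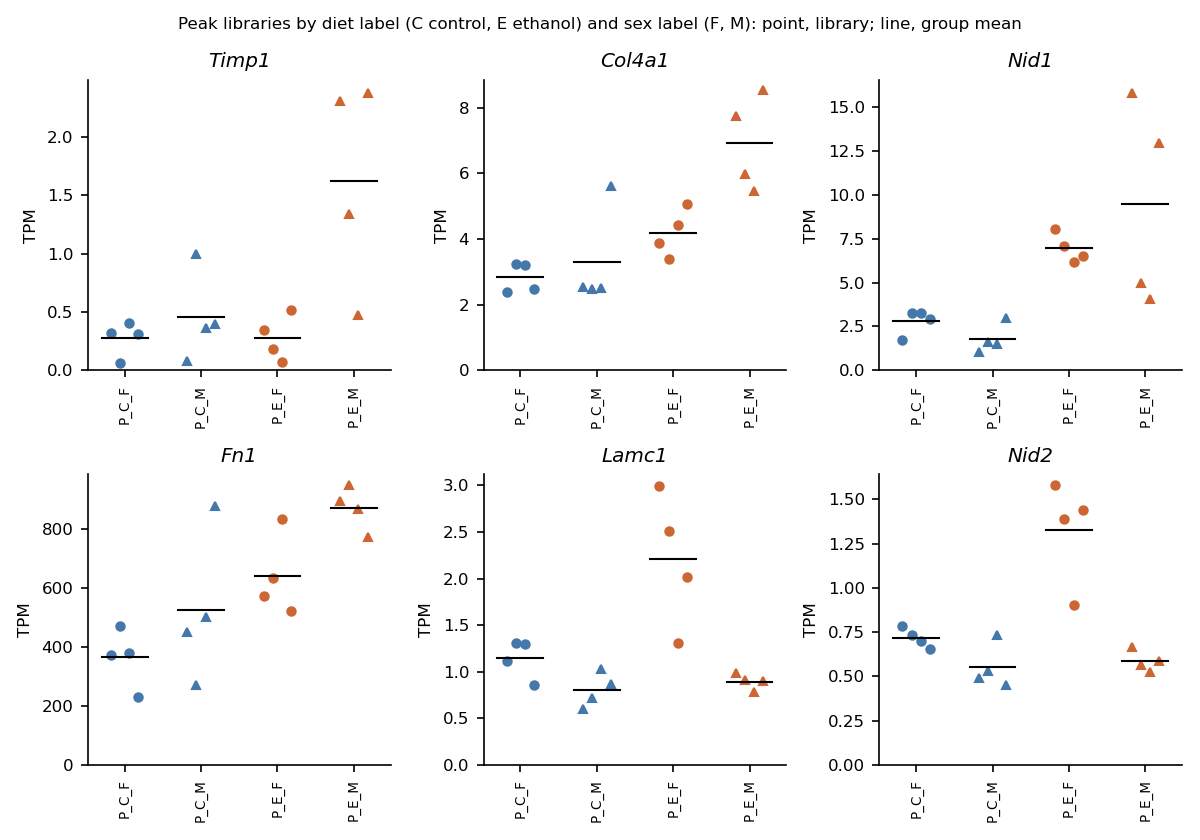
TPM of 6 matrix genes in the 16 peak libraries by diet label (C, E) and sex label (F, M), with lines at group means. In the ethanol-labelled libraries Timp1 reaches 2.37 TPM under the male label and 0.515 TPM under the female label, while Nid2 stays at or below 0.667 TPM under the male label.

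In the other contrasts of the sex labels few matrix genes passed. Within the control label, 0 of 33 passed at peak, early and late resolution in limma, with 2, 1 and 3 at an unadjusted p under 0.05, against 2.9%, 0.151% and 0.934% of all genes. The all-gene median was offset by -0.19 at peak and 0.10 at late resolution in these contrasts. After scaling, 0, 0 and 1 passed, Bgn at -0.63 ± 0.17 at late resolution (limma, adjusted p = 0.035), against 3.08%, 0.88% and 4.33% of all genes. Within the ethanol label, 0 passed at early and late resolution as deposited and after scaling, with 0 and 1 at an unadjusted p under 0.05 as deposited and 3 and 0 after scaling. Of all genes, 0.178% and 0.507% passed as deposited and 0.267% and 0.756% after scaling. Without the library labelled late control female 1 the control-label count at late resolution was again 0.

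Ratios of chains that assemble together do not depend on the scaling of a library. The ratio of Col1a2 to Col1a1 had a median of 3.22 over 45 libraries and ranged from 2.02 to 4.70, although the mature collagen I trimer holds more of the chain encoded by Col1a1. The ratio of Col6a1 to Col6a2 had a median of 2.93 and ranged from 2.20 to 4.35. Col6a3 to Col6a1 had a median of 0.472 and ranged from 0.214 to 0.683. For Col4a1 to Col4a2 the median was 2.22 and the range 1.54 to 6.15. At peak, this ratio was 3.36 to 3.96 in male-labelled and 1.84 to 2.68 in female-labelled ethanol libraries. The genes Col4a1 (chr8:11198423-11312826, minus strand) and Col4a2 (chr8:11312805-11449287, plus strand) lie head to head in GENCODE M21 on GRCm38 and share 22 bases at their starts. The sources used here do not say whether the counting used strand.

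Nid1 and Nid2 are relatives rather than chains that assemble together, and their ratio was the most variable. It had a median of 4.49 over all libraries. In the male-labelled ethanol libraries at peak it ran from 7.76 to 23.7 with a median of 15.4, and in the female-labelled ones from 4.53 to 6.82. These did not overlap. In the peak control-labelled libraries it ran from 2.02 to 6.59, and at late resolution it lay between 3.34 and 6.08 in all 14 libraries.

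**Figure D5:**
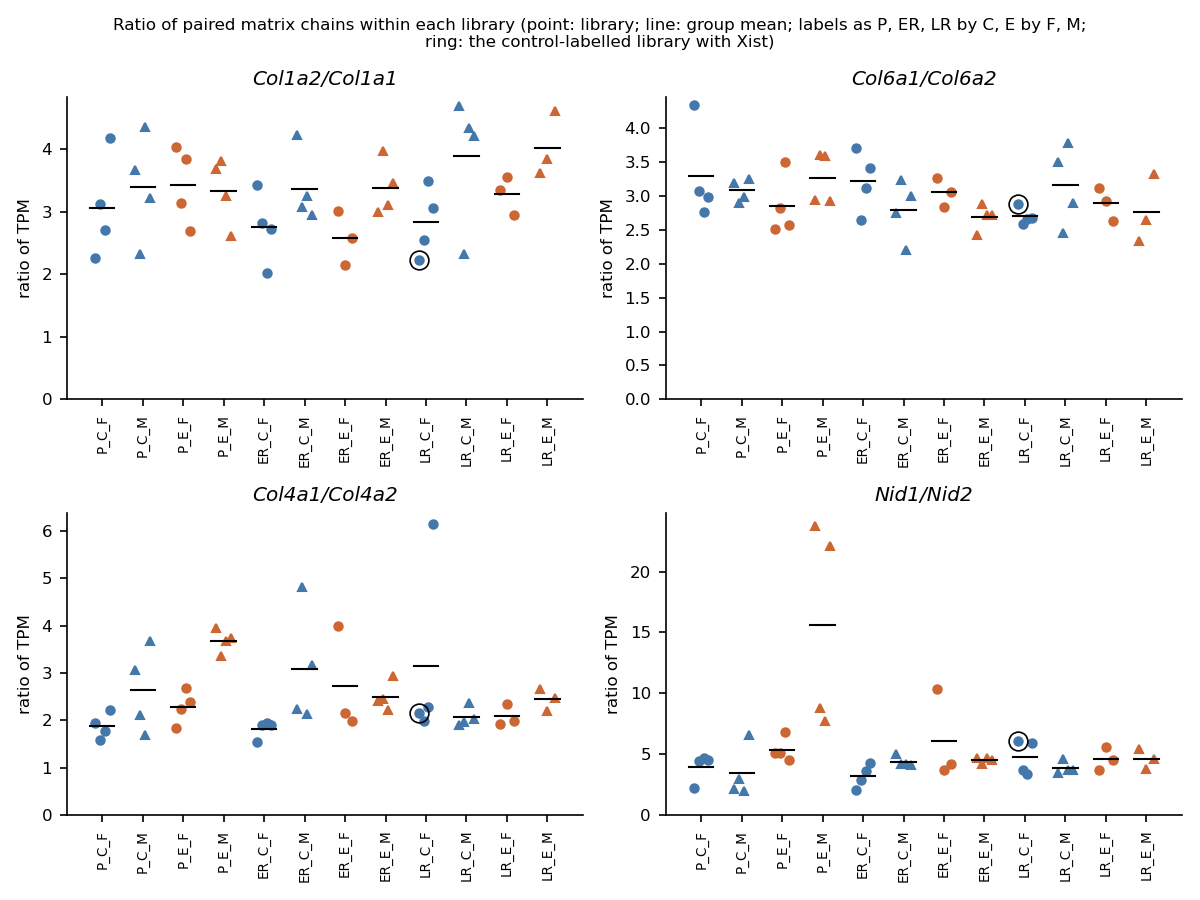
Ratio of TPM of 4 pairs of matrix genes within each library, by group, with lines at group means and a ring on the library labelled late control female 1. Col1a2 to Col1a1 stays between 2.02 and 4.70, while Nid1 to Nid2 reaches 23.7 in the male-labelled ethanol libraries at peak.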

How the data were processed

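Whole liver RNA was sequenced in 45 libraries prepared as stranded mRNA libraries per the labels' protocols, with genome build mm10 per the submitters' processing notes. The authors deposited 1 table of TPM values; the sources used here do not name an aligner, counter or annotation. Library totals were 999999 to 1000001 TPM, and counts and depth could not be read from the table, so depth is unknown and no counting interval is given. Of 24972 entries, 26 with calendar-date names (0.0441% of TPM) were left out.

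Values were analysed as log2(TPM + 0.5) with limma 3.58.1 in R 4.3.3, 1 mean for each of 12 groups and 33 residual degrees of freedom, over the 11244 genes whose mean reached 0.5 TPM. Diet-label differences average the sex labels equally. The Benjamini-Hochberg adjustment covered all of these genes, with 0.05 as the threshold. Alternatives were median-of-ratios scaling, quantile normalization, pseudocounts of 0.1 and 2, no filter, a mean of at least 5 TPM, stages fitted alone, a replicate block and each library left out. The test was checked on simulated data. Positions came from GENCODE M21 and upstream sequences from RefSeq (GRCm38.p6); 28 of 41 genes matched.

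The 41 genes and the pathway and marker lists were chosen with earlier results of these data known. All 41 could be named. Values in every library were given for some genes, and medians, ranges or differences for others. The plan allowed up to 3 named genes per list, and in some lists more were named.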

Additional observations from a re-analysis of the deposited data

Results flagged for a closer look

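In each group of 4 libraries, a library was singled out when its gap to the nearest of the others was large against the whole range of the group. Of 369 pairs of a gene and a group, 32 were singled out, where chance gives about 1 in 20, or 18. Of the 32, 25 were in control-labelled libraries, which made up 6 of the 9 groups checked. No explanation was tested.

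The library labelled peak control female 1 was low for Col14a1 at 2.92 TPM, Lamb1 at 0.847 TPM, Tgfbi at 15.2 TPM and Mmp13 at 0.0732 TPM. Peak control female 3 was high for Col1a1 at 0.591 TPM. Peak control male 1 was low for Dcn at 33.7 TPM. Peak control male 2 was high for Col1a1 at 0.827 TPM, Vim at 11.9 TPM and Mmp12 at 0.0925 TPM. Peak control male 4 was high for Col4a1 at 5.63 TPM, Timp3 at 10.2 TPM and Fbn1 at 0.213 TPM. Of the ethanol-labelled libraries at peak, female 1 was high for Lamb2 at 3.30 TPM and Lox at 0.0357 TPM, male 1 was high for Bgn at 186 TPM, and male 4 was high for Vim at 12.7 TPM.

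At early resolution, control female 4 was high for Lamb2 at 1.18 TPM, Hspg2 at 0.999 TPM, Timp3 at 12.8 TPM and Col5a1 at 0.339 TPM. Control male 1 was high for Postn at 4.93 TPM and Eln at 0.257 TPM, and control male 2 for Col4a1 at 6.36 TPM. Control male 3 was high for Col1a2 at 2.25 TPM, Col6a2 at 1.39 TPM and Lox at 0.0167 TPM. Ethanol male 1 was high for Timp1 at 0.877 TPM, ethanol male 2 was low for Fn1 at 385 TPM and ethanol male 4 was low for Vim at 10.8 TPM. At late resolution, control male 2 was high for Col1a1 at 1.60 TPM and Timp1 at 1.38 TPM, and control male 4 was low for Bgn at 61.9 TPM.

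The difference between the diet labels itself differed between peak and late resolution for Nid1, by -1.25, and for Fn1, by -0.94, on the log2(TPM + 0.5) scale; as the report gives, single libraries end these calls.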

How the results depend on the processing

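Counts below are of matrix genes passing the threshold. With a mean of at least 5 TPM required, the diet label gave 10 at peak and 7 at early resolution, the sex label within ethanol at peak 2, and the change from peak to late resolution 1; fewer genes are tested there. Without a filter that last change gave 1. Median-of-ratios scaling gave 4 for it and 1 for the sex label within control at late resolution; quantile normalization gave 5 and 1, and 5 for the sex label within ethanol at peak. With stages fitted alone, the diet label at late resolution gave 3 and the sex label within ethanol at peak 14. The cause of these moves was not tested. Same-numbered libraries did not deviate together throughout: r was over 0.1 in 7 of 21 diet pairs (-0.37 to 0.25), the 4 female-labelled peak pairs among them, and in 6 of 22 sex pairs (-0.43 to 0.53), and 13 of 42 and 13 of 44 libraries correlated best with their own number. Since not every pair was over 0.1 and the labels name no shared litter or day, the numbers were not used as pairs. With a replicate block, which left out 3 libraries, the diet label at late resolution gave 2 and the late minus peak change 0. Leaving out 1 library at a time gave 23 to 30 for the diet label at peak, 7 to 24 at early and 4 to 9 at late resolution, 4 to 12 for the sex label within ethanol at peak, 0 to 5 for the late minus peak change and 0 to 0 for the other 9 comparisons. Hspg2, lower under the male label within ethanol at peak, changed sign under quantile normalization, to 0.014. Of 59 called differences of single genes, 8 were lost with median-of-ratios scaling, 9 without a filter, 6 with quantile normalization, 13 with the block and 21 at least once when a library was left out. Depth is unknown, and values near 0.5 TPM rest on few reads in a way that the table cannot show.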
